A study of Mus musculus with 22 samples.

Results

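The response of double-positive thymocytes to a Vav-Cre deletion of E2a at 4 weeks of age was measured in 6 of the 22 libraries of the study. The 3 Vav knockout libraries came from VavCre E2aF/F mice and the 3 control libraries from E2aF/F mice, in which no Cre is named. Both groups therefore carried the floxed E2a alleles, both were untreated and both were 4 weeks old. The cells were CD45.1+ CD4+CD8+ primary cells of the thymus. Of the 43430 genes in the expression table of these 6 libraries, 10828 stood at 1 FPKM or more in at least 3 libraries, and every one of them was tested. FPKM counts the fragments that fall on each kilobase of a gene, for a fixed number sequenced. The study also held Lck-Cre libraries at 4 weeks, with their own controls, and older and transplanted Vav-Cre mice. The labels do not say whether a library was 1 animal or a pool, so the p-values measure the spread between libraries, which may be partly technical.

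E2a is the locus of the gene Tcf3, whose products E12 and E47 are E proteins. E proteins are basic helix-loop-helix transcription factors that bind E-box DNA as dimers with each other or with HEB, and Id proteins hold them off DNA. In the thymus they promote commitment to the T lineage, expression of the pre-T cell receptor and the recombinase, and rearrangement of receptor genes, and they restrain proliferation until a receptor signals. The double-positive stage is where the T cell receptor alpha chain is rearranged and positive selection begins. Vav-Cre is active from blood stem cells onward, so in these mice the cells passed through every T cell stage with the floxed alleles exposed to Cre.

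Tcf3 itself (chr10:80409514-80433647, minus strand, mm10) had 1.36, 1.39 and 1.15 FPKM in Vav knockouts, against 7.47, 6.39 and 6.73 FPKM in controls. The means were 1.30 ± 0.127 FPKM in Vav knockouts and 6.86 ± 0.555 FPKM in controls (SD, n = 3 each). Each knockout library was below each control library (log2 change -1.77, SE 0.0798, adjusted p = 0.000363). A log2 change here is the difference between the group means of log2(FPKM + 1), knockout minus control, and adjusted p is the p of limma's moderated test after Benjamini-Hochberg adjustment over the 10828 genes. A gene was called where the adjusted p was under 0.05.

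The lowest FPKM values implied 31.2 to 37.3 M (mega) reads in the 6 libraries. These depths are rough, since only 56.0% to 57.6% of the low values came out as whole reads. Knockout replicate 1 stood apart in the predicted gene Gm23935, with 9792 FPKM against 1393 to 2107 FPKM in the other libraries. The identity of the sorted cells was checked against 13 T lineage markers. All 13 had a negative log2 change, and in 10 each knockout was below each control, beside 18.7% over all tested genes. Of the 13, 5 were called lower, beside 6.08% over all tested genes. The 5 were Rag1, Rag2, Ptcra, Arpp21 and Cd4, a coreceptor that defines the stage. All but Arpp21 are described again with the E protein targets, so the falls of these lists are not separate results. Cd8a, a chain of the other coreceptor, was not called and stood at 432 to 482 FPKM in Vav knockouts and 484 to 504 FPKM in controls. Chromosome 15 stood apart in all 3 Vav knockouts. Over its 262 genes with a control mean of 5 FPKM or more, the median log2 difference from the controls, relative to all autosomes, was 0.29, 0.25 and 0.30 in Vav knockouts, against 0.0075, -0.00066 and 0.0024 in controls, each control being set against the other two. Of the 420 tested genes on chromosome 15, 148 were called higher (35.2%) and 10 lower, against 678 higher (6.51%) and 648 lower (6.23%) of the 10408 tested genes elsewhere. Smaller shifts belonged to single knockout libraries. Replicate 3 had medians of 0.10, 0.13 and 0.12 on chromosomes 1, 2 and 4, and replicate 2 had 0.10, 0.14 and 0.14 on chromosomes 10, 13 and 18. Counts without its genes are given for ribosomal proteins and where they moved a list by over 1.5 times or by 2 or more genes.

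**Figure D1:**
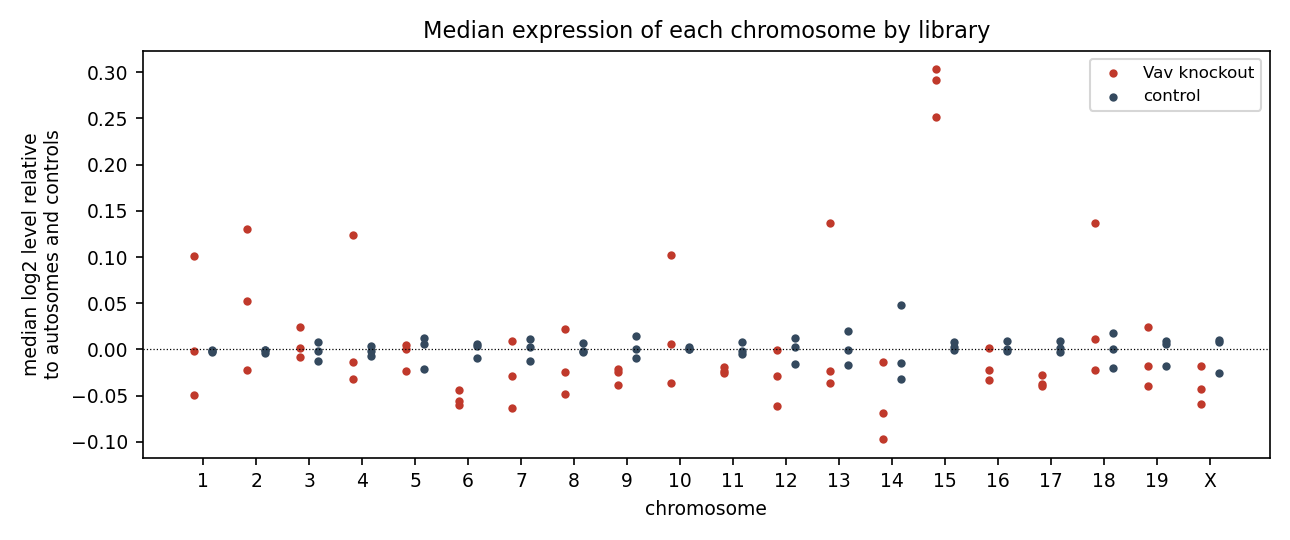
Median log2 difference from the control mean of each chromosome's genes in each library, as a departure from the median over autosomes of that library (vertical axis), by chromosome (horizontal axis), with Vav knockout points left of control points. The 3 Vav knockouts sit between 0.25 and 0.30 on chromosome 15, where the controls sit near 0.

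Across all tested genes, 826 were higher in the Vav knockouts and 658 were lower, which is 13.7% of 10828 (7.63% higher and 6.08% lower). The groups did not overlap for any of these calls. Over all tested genes, called or not, the groups did not overlap for 19.2% with the knockouts higher and 18.7% with the knockouts lower. The counts of list members below stand beside these shares, and lists near them are not set apart by their counts. Most calls were modest: 120 rises and 119 falls reached a log2 change of 1 or more, while 399 rises and 298 falls were under 0.5. The median log2 change was 0.51 among the rises, -0.54 among the falls and -0.01 over all tested genes. Rises made up 14.8% and falls 5.78% of the 277 genes above 100 FPKM, and rises made up 6.56% and falls 7.60% of the 1829 genes under 2 FPKM. Genes that moved across 1 FPKM were of similar number in both directions. In 143 genes every Vav knockout was at 1 FPKM or more with every control under it, and 110 of these were called. In 120 genes it was the reverse, and 91 were called. Such genes were picked by their separation and passed the filter only through the group where they were high. Their calls are thus no separate result, here or in the lists below. Outside receptor segments, Cd163l1, H2-Ab1, Hist1h4b, Il2rb, Il7r, Itgam and Klf2, named below, passed only through the knockouts. So did Myo1e, Nkg7, P2rx7, Plxnb2, Runx3, S1pr1 and Sdc1. Abca1, Bnip3, Cd79b, Epcam, Itga5, Slc22a17 and Unc5cl passed only through the controls. When all libraries were scaled to the same FPKM sum, the split became 606 higher and 1001 lower. Leaving out 1 library moved the counts the most when it was control replicate 2 (332 higher and 256 lower), control replicate 3 (371 and 291), control replicate 1 (418 and 300) or knockout replicate 3 (527 and 421).

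Genes of cytosolic protein synthesis held rises and no falls among their calls, although most members were not called. All 78 tested cytosolic ribosomal protein genes had a positive log2 change, with a median of 0.34 against -0.01 over all genes. Of these, 31 were called higher and none lower, beside 7.63% higher over all genes, and in 62 of them each knockout was above each control, beside 19.2% over all genes. The summed FPKM of the 78 genes was 18237, 22019 and 19430 in Vav knockouts, against 14300, 16241 and 15801 in controls, so the lowest knockout stood above the highest control. Without chromosome 15, 27 of 74 were called. Ribosomal protein genes have many near-identical processed pseudogenes, so single members are uncertain. Rps26, a protein of the small subunit (chr10:128624534-128626747), had 769, 861 and 719 FPKM in Vav knockouts, against 414, 509 and 487 FPKM in controls (log2 change 0.74, SE 0.117, adjusted p = 0.0111). Rpl35, of the large subunit, had 117, 100.1 and 102 FPKM in Vav knockouts, against 62.5, 71.1 and 67.5 FPKM in controls (log2 change 0.66, SE 0.0821, adjusted p = 0.00546). Rpl8, also of the large subunit and on chromosome 15, had 1011, 992 and 991 FPKM in Vav knockouts, against 608, 692 and 666 FPKM in controls (log2 change 0.61, SE 0.0888, adjusted p = 0.00867). In each of these genes the 3 knockouts lay above the 3 controls without overlap. The count of 31 depended on the libraries: it was 10, 10 and 8 without control replicates 1, 2 and 3, and 36, 22 and 16 without knockout replicates 1, 2 and 3. It was 18 after scaling to the same sum, with the median still at 0.28.

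The same direction held for the calls among translation factors. Of 49 tested initiation and elongation factors, 13 rose and 0 fell (median 0.18), of which 7 lie on chromosome 15 (6 of 42 called without it). Over all genes 7.63% rose. The 13 became 8 without control replicate 3. Pabpc1, the cytoplasmic poly(A)-binding protein, had 159.5, 165 and 156 FPKM in Vav knockouts, against 76.4, 89.01 and 88.2 FPKM in controls (log2 change 0.92, SE 0.0761, adjusted p = 0.00176). Eif3e, a subunit of the initiation factor that recruits the small ribosomal subunit, had 201, 227 and 202 FPKM in Vav knockouts, against 136, 146 and 140.4 FPKM in controls (log2 change 0.57, SE 0.0733, adjusted p = 0.00580). Both lie on chromosome 15, and both separated the groups completely. All 23 tested cytosolic aminoacyl-tRNA synthetase genes, which charge tRNAs with amino acids, had a positive log2 change (median 0.23). Of these, 8 rose and 0 fell, beside 7.63% higher over all genes. In 19 each knockout was above each control, beside 19.2% over all genes. The change of the largest, Vars, the valine enzyme, was moderate, with 4.53, 5.38 and 4.51 FPKM in Vav knockouts, against 2.88, 3.25 and 3.16 FPKM in controls (log2 change 0.50, SE 0.0817, adjusted p = 0.0119). The 8 calls became 2, 1 and 1 without control replicates 1, 2 and 3 and 5 without knockout replicate 3.

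Of 35 protein folding genes, 11 rose and 0 fell, beside 7.63% higher over all genes, with a median of 0.22 and 33 positive values. In 24 each knockout was above each control, beside 19.2% over all genes, and 9 of 32 were called without chromosome 15. The 11 became 6, 5 and 5 without control replicates 1, 2 and 3 and 5 without knockout replicate 3. Among the larger changes were those of the mitochondrial chaperonin and its lid, which are neighbouring genes on chromosome 1. Hspd1 (chr1:55077835-55088243) had 67.6, 75.7 and 89.5 FPKM in Vav knockouts, against 39.1, 48.03 and 48.1 FPKM in controls (log2 change 0.77, SE 0.126, adjusted p = 0.0121). Hspe1 (chr1:55088132-55091307) had 30.4, 33.9 and 37.9 FPKM in Vav knockouts, against 16.8, 20.6 and 20.2 FPKM in controls (log2 change 0.80, SE 0.107, adjusted p = 0.00661). Their annotated spans share a short stretch on opposite strands and the strand setting of the counting is unknown, so reads there cannot be assigned to either gene. Control replicate 1 was the lowest of the controls for both. Of the 77 mitochondrial ribosomal protein genes, 8 rose and 1 fell (median 0.12), with 2 and 2 after scaling to the same sum. These counts stand beside 7.63% higher and 6.08% lower over all genes. The rises numbered 3, 3 and 2 without control replicates 1, 2 and 3 and 2 without knockout replicate 3. Among them Mrps15 had 13.4, 11.97 and 12.4 FPKM in Vav knockouts, against 8.45, 8.68 and 9.47 FPKM in controls (log2 change 0.46, SE 0.0660, adjusted p = 0.00821). All 15 tested genes encoded in mitochondrial DNA had positive changes (median 0.21), and 5 were called higher, beside 7.63% over all genes. The 5 became 1 after scaling to the same sum, 1 without any 1 of the controls or knockout replicate 3, and 3 without knockout replicate 1. The mitochondrial small ribosomal RNA, mt-Rnr1, had 418, 364 and 393 FPKM in Vav knockouts, against 253, 269.6 and 263 FPKM in controls (log2 change 0.58, SE 0.0782, adjusted p = 0.00684).

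**Figure D2:**
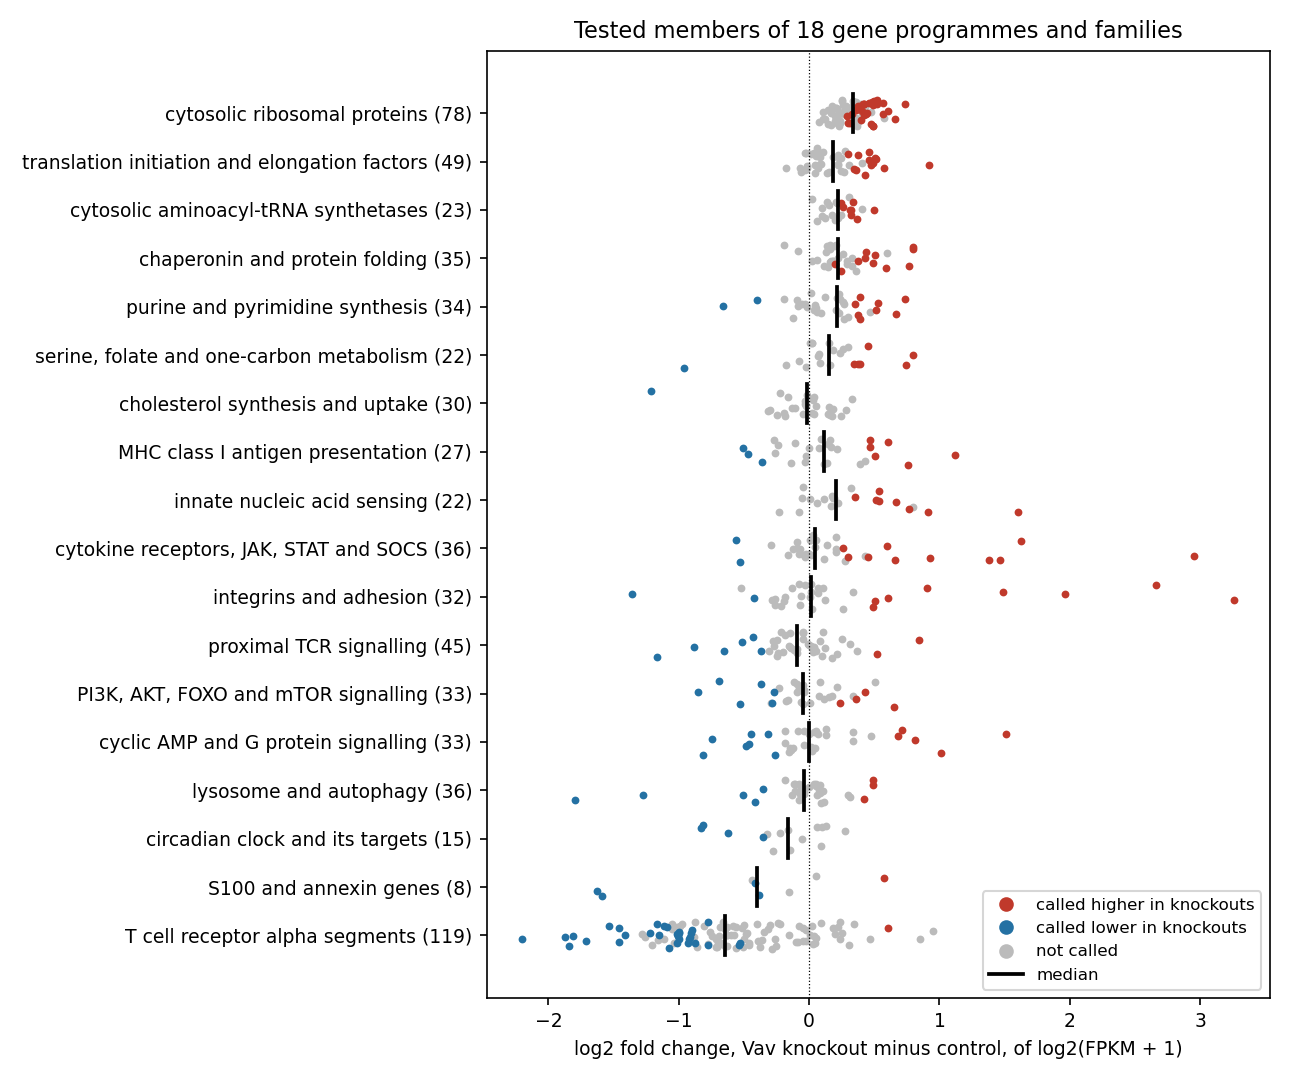
Log2 change of each tested member (points, horizontal axis, knockout minus control) in 18 gene programmes (vertical axis), with the median of each programme marked. Ribosomal protein members lie between 0.08 and 0.74, while T cell receptor alpha segments reach -2.20.

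Genes of anabolic metabolism were higher in some branches and not in others. Of 34 genes of purine and pyrimidine synthesis, 8 rose and 2 fell (median 0.21, with 5 and 2 after scaling to the same sum). These counts stand beside 7.63% higher and 6.08% lower over all genes. In 18 the knockouts were all above the controls, beside 19.2% over all genes. Adsl, an enzyme of the purine pathway on chromosome 15, had 9.34, 9.405 and 10.8 FPKM in Vav knockouts, against 6.19, 6.74 and 6.57 FPKM in controls (log2 change 0.53, SE 0.0720, adjusted p = 0.00684). Ada, the adenosine deaminase of purine salvage, fell, with 24.4, 20.03 and 23.4 FPKM in Vav knockouts, against 35.2, 37.5 and 35.8 FPKM in controls (log2 change -0.66, SE 0.0809, adjusted p = 0.00526). The group counted 1 rise without control replicate 2 or 3, 2 without control replicate 1, 3 without knockout replicate 3 and 10 without knockout replicate 1. Its falls numbered 1 without any 1 of the controls or knockout replicate 3. Of 22 genes of serine, folate and one-carbon metabolism, 6 rose and 1 fell (median 0.16), beside 7.63% higher and 6.08% lower over all genes. The rises became 2, 3 and 3 without control replicates 1, 2 and 3 and 3 without knockout replicate 3. Shmt2, the mitochondrial serine hydroxymethyltransferase, had 38.6, 54.6 and 44.4 FPKM in Vav knockouts, against 23.6, 26.97 and 26.9 FPKM in controls (log2 change 0.79, SE 0.129, adjusted p = 0.0118), and without control replicate 1 it was no longer called (adjusted p = 0.0520). Mthfd1, the cytosolic enzyme that interconverts folate units, had 18.9, 24.3 and 20.7 FPKM in Vav knockouts, against 11.7, 12.4 and 12.7 FPKM in controls (log2 change 0.74, SE 0.0927, adjusted p = 0.00545). The fall was Ggh, which removes the glutamate tail of folates, with 1.17, 0.637 and 0.785 FPKM in Vav knockouts, against 2.61, 2.45 and 2.77 FPKM in controls (log2 change -0.96, SE 0.119, adjusted p = 0.00532). Knockout replicate 2 was the highest for Shmt2 and Mthfd1 and the lowest for Ggh.

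Polyamine genes held 3 calls among 12 tested, all of them rises, beside 7.63% higher over all genes. Odc1, ornithine decarboxylase, had 23.6, 26.7 and 26.95 FPKM in Vav knockouts, against 17.2, 18.3 and 17.5 FPKM in controls (log2 change 0.52, SE 0.0673, adjusted p = 0.00604). Srm, spermidine synthase, had 9.38, 13.9 and 11.9 FPKM in Vav knockouts, against 4.06, 5.59 and 5.14 FPKM in controls (log2 change 1.09, SE 0.155, adjusted p = 0.00778). Eif5a, the factor that carries a spermidine-derived amino acid, had 40.3, 42.8 and 42.7 FPKM in Vav knockouts, against 26.9, 31.5 and 31.7 FPKM in controls (log2 change 0.47, SE 0.0762, adjusted p = 0.0117). All 3 kept their call in every fit with 1 library left out. In fatty acid metabolism, 5 of 32 genes rose and 0 fell, beside 7.63% higher and 6.08% lower over all genes. All 5 were enzymes of synthesis, desaturation or elongation. The counts were 5 rises and 2 falls after scaling to the same sum, and 3 rises without control replicate 1 or 2 or knockout replicate 3. Scd2, a stearoyl-CoA desaturase, had 166, 161 and 161 FPKM in Vav knockouts, against 111, 102 and 97.5 FPKM in controls (log2 change 0.65, SE 0.0657, adjusted p = 0.00326). Elovl5 and Elovl6 lengthen fatty acids; Elovl5 had 37.9, 38.6 and 36.7 FPKM in Vav knockouts, against 25.7, 26.4 and 26.3 FPKM in controls (log2 change 0.51, SE 0.0473, adjusted p = 0.00251), and Elovl6 had 4.37, 4.41 and 4.49 FPKM in Vav knockouts, against 3.04, 2.71 and 2.59 FPKM in controls (log2 change 0.52, SE 0.0671, adjusted p = 0.00582). The groups were well apart in all 3. Of 30 cholesterol genes 0 rose and 1 fell, with a median of -0.02, while 3 rose without knockout replicate 2, with a median of 0.05. The difference between the fatty acid and cholesterol lists was not tested. The fall was Abca1, which exports cholesterol, with 0.858, 0.643 and 0.851 FPKM in Vav knockouts, against 5.36, 2.39 and 2.25 FPKM in controls (log2 change -1.21, SE 0.257, adjusted p = 0.0275). Control replicate 1 stood well above the other controls, and the Abca1 call was lost without control replicate 2 or without any of the knockouts (highest adjusted p = 0.0764).

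**Figure D3:**
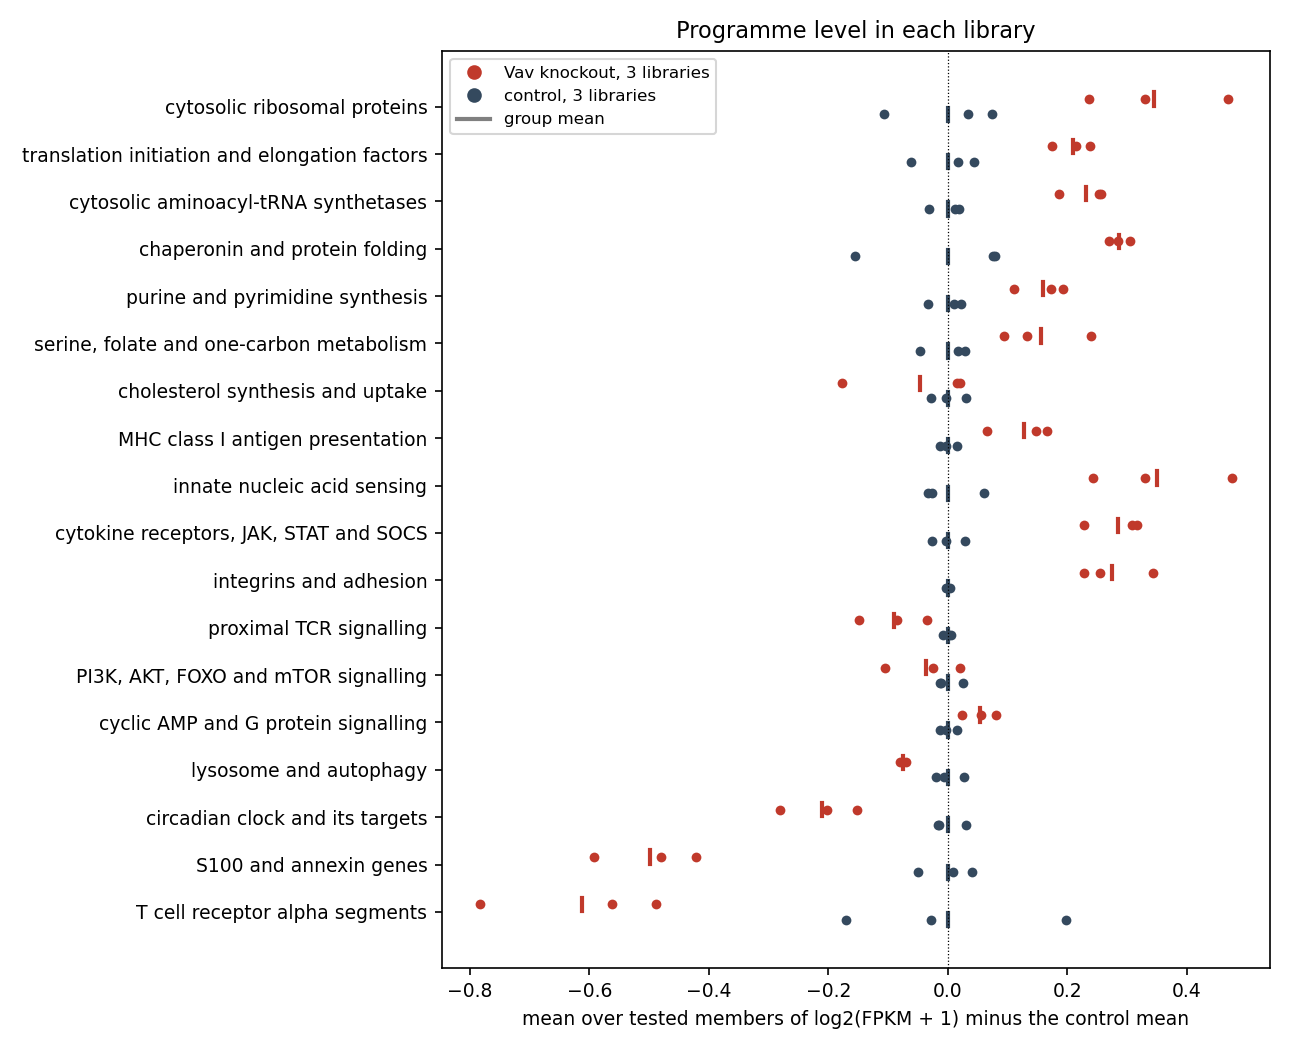
Mean over the tested members of log2(FPKM + 1) minus the control mean (horizontal axis) for 18 gene programmes (vertical axis) in each Vav knockout (upper points) and control library (lower points), with a line at each group mean. Knockout points for ribosomal proteins lie at 0.24 to 0.47, against -0.11 to 0.07 in controls, while cholesterol genes overlap.

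Genes of MHC class I antigen presentation changed in both directions. Of 27 tested, 6 rose and 3 fell (median 0.12), beside 7.63% higher and 6.08% lower over all genes. The rises included the shared light chain B2m (chr2:122147686-122153083), which had 348, 368 and 341 FPKM in Vav knockouts, against 148, 175 and 163 FPKM in controls (log2 change 1.12, SE 0.0833, adjusted p = 0.00146). The classical heavy chain H2-D1 had 135, 129 and 138 FPKM in Vav knockouts, against 81.6, 90.7 and 91.4 FPKM in controls (log2 change 0.60, SE 0.0679, adjusted p = 0.00421). The 3 falls were all non-classical heavy chains, of which H2-T22 had 12.5, 11.9 and 13.9 FPKM in Vav knockouts, against 19.01, 17.1 and 18.02 FPKM in controls (log2 change -0.47, SE 0.0724, adjusted p = 0.0101). H2 genes are close copies of each other, so the division of reads among them is uncertain. The knockouts did not overlap with the controls in these 3 genes. The number of rises was 2 without any 1 of the controls or without knockout replicate 3, and the number of falls was 1 without any 1 of the controls. Scaling to the same sum gave 5 rises and 4 falls.

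Genes that sense foreign nucleic acid were higher in the Vav knockouts where they were called. Of 22 tested, 8 rose and 0 fell (median 0.21), beside 7.63% higher over all genes. In 15 each knockout was above each control, beside 19.2% over all genes. Tmem173, the adaptor STING of cytosolic DNA sensing, had 8.83, 20.4 and 11.1 FPKM in Vav knockouts, against 3.44, 3.44 and 3.63 FPKM in controls (log2 change 1.60, SE 0.267, adjusted p = 0.0126). Knockout replicate 2 was the highest, and the call was lost without control replicate 1 or 2 (highest adjusted p = 0.0559). Zbp1, a sensor of Z-form nucleic acid, had 7.79, 8.22 and 9.08 FPKM in Vav knockouts, against 4.07, 3.83 and 4.01 FPKM in controls (log2 change 0.91, SE 0.0679, adjusted p = 0.00146), and the transcription factor Irf1 had 5.42, 7.26 and 6.34 FPKM in Vav knockouts, against 3.56, 3.58 and 3.64 FPKM in controls (log2 change 0.67, SE 0.0962, adjusted p = 0.00833). Of the 9 guanylate-binding and immunity-related GTPases, 5 rose and 0 fell (median 0.36), beside 7.63% higher over all genes. Among them Tgtp2 had 2.399, 2.302 and 2.37 FPKM in Vav knockouts, against 1.09, 1.07 and 0.881 FPKM in controls (log2 change 0.74, SE 0.0763, adjusted p = 0.00344) and has a near-identical neighbour, which makes the single value uncertain. The 8 rises of the sensing genes became 3 and 4 without control replicates 2 and 3 and 5 without control replicate 1, and the 5 of the GTPases became 1 without any 1 of the controls and 3 without knockout replicate 3.

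Cytokine receptors and their signalling genes held 10 rises and 2 falls among 36 tested, while the median was near 0 (0.05, and -0.01 with 8 rises and 3 falls after scaling to the same sum). Over all genes 7.63% rose and 6.08% fell. Il7r passed the filter only through the knockouts, so the count of rises was partly fixed by it. Without chromosome 15 there were 8 rises and 2 falls among 34, and the falls numbered 1 without any 1 of the controls or knockout replicate 3. Il2ra, the alpha chain of the interleukin 2 receptor and a marker of double-negative thymocytes, had 30.9, 24.7 and 13.5 FPKM in Vav knockouts, against 2.13, 1.896 and 1.84 FPKM in controls (log2 change 2.95, SE 0.272, adjusted p = 0.00251). Il7r, the interleukin 7 receptor, which double-positive cells normally switch off, lies on chromosome 15 and had 3.001, 3.72 and 2.94 FPKM in Vav knockouts, against 0.539, 0.553 and 0.474 FPKM in controls (log2 change 1.47, SE 0.0951, adjusted p = 0.00110). Socs3, a feedback inhibitor of cytokine signalling (chr11:117966079-117970047), had 14.8, 15.1 and 10.3 FPKM in Vav knockouts, against 3.93, 3.71 and 3.21 FPKM in controls (log2 change 1.62, SE 0.149, adjusted p = 0.00251). All 3 genes were low and tight in the controls and higher in every knockout. The opposite held for Il21r, the interleukin 21 receptor, one of the more abundant receptors of these cells, which had 67.4, 65.4 and 67.02 FPKM in Vav knockouts, against 98.2, 100.4 and 97.3 FPKM in controls (log2 change -0.56, SE 0.0493, adjusted p = 0.00219). In the same libraries the summed FPKM of 11 double-negative markers was 91.5, 108 and 66.1 in Vav knockouts, against 20.5, 19.5 and 20.2 in controls, carried by Il2ra, Dtx1 and Notch1, which were the 3 members tested and all rose. Hes1, below the limit for testing, had 0.807, 1.84 and 0.726 FPKM in Vav knockouts, against 0.0205, 0.0296 and 0 FPKM in controls. The other members, Kit, Cd44, Erg, Spi1, Lyl1, Hhex and Mef2c, were at 0.651 FPKM or less in all libraries. Of these, Kit went the other way, with 0.0315, 0.0202 and 0.0464 FPKM in Vav knockouts, against 0.238, 0.171 and 0.143 FPKM in controls. Mef2c, at 0.0214 FPKM or less, was also lower in each knockout than in each control. In bulk RNA a change in the share of cells of a type and a change in RNA per cell cannot be told apart.

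A few genes of surface adhesion changed by a large amount. Of 32 integrin and adhesion genes, 8 rose and 2 fell (median 0.02, and -0.04 with 7 rises and 6 falls after scaling to the same sum), and 7 rose and 1 fell of 30 without chromosome 15. Over all genes 7.63% rose and 6.08% fell. Sdc1 and Itga5 passed the filter only through the group where they were high, so these counts were partly fixed by it. Sdc1, a heparan sulfate proteoglycan, had 7.48, 16.7 and 10.3 FPKM in Vav knockouts, against 0.185, 0.247 and 0.303 FPKM in controls (log2 change 3.26, SE 0.2498, adjusted p = 0.00155), and its relative Sdc4 had 4.48, 12.5 and 6.38 FPKM in Vav knockouts, against 1.49, 0.952 and 0.886 FPKM in controls (log2 change 1.97, SE 0.319, adjusted p = 0.0118). Knockout replicate 2 was highest for both. A pair of integrin chains on chromosome 15 went opposite ways. Itgb7, which pairs with alpha 4 or alpha E chains, had 24.8, 31.4 and 32.3 FPKM in Vav knockouts, against 3.22, 4.23 and 3.99 FPKM in controls (log2 change 2.66, SE 0.125, adjusted p = 0.000372). Itga5, the alpha chain of the fibronectin receptor, had 0.0140, 0.0147 and 0.0512 FPKM in Vav knockouts, against 1.64, 1.396 and 1.895 FPKM in controls (log2 change -1.36, SE 0.102, adjusted p = 0.00146). Itga5 was thus near 0 in all knockouts although most genes of its chromosome shifted upward. Selplg, the ligand of P-selectin, fell slightly, with 86.6, 78.3 and 80.2 FPKM in Vav knockouts, against 109, 109 and 111 FPKM in controls (log2 change -0.42, SE 0.0591, adjusted p = 0.00755). Lgals1, galectin 1, which binds glycans at the cell surface, was abundant and lies on chromosome 15, with 447, 553 and 423 FPKM in Vav knockouts, against 241, 277 and 285 FPKM in controls (log2 change 0.82, SE 0.125, adjusted p = 0.0101).

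Among 54 genes of the actin cytoskeleton and its regulators, 7 rose and 0 fell (median 0.03, and -0.03 with 5 rises and 3 falls after scaling to the same sum). Over all genes 7.63% rose and 6.08% fell. The 13.0% called in this list lies near the 13.7% over all genes. Rises given here were of myosins, a tropomyosin and a protein that binds actin monomers. Myo1e, an unconventional myosin, was nearly silent in controls, with 3.79, 5.196 and 2.83 FPKM in Vav knockouts, against 0.0178, 0.103 and 0.108 FPKM in controls (log2 change 2.17, SE 0.174, adjusted p = 0.00171). Its relative Myo1f had 3.59, 4.72 and 3.12 FPKM in Vav knockouts, against 1.82, 1.502 and 1.49 FPKM in controls (log2 change 0.87, SE 0.132, adjusted p = 0.00945). Tpm4, a tropomyosin, had 44.6, 49.8 and 44.3 FPKM in Vav knockouts, against 23.1, 28.5 and 29.3 FPKM in controls (log2 change 0.76, SE 0.101, adjusted p = 0.00631). Tmsb10, which binds actin monomers, had 69.2, 73.6 and 57.4 FPKM in Vav knockouts, against 36.99, 40.9 and 36.8 FPKM in controls (log2 change 0.78, SE 0.101, adjusted p = 0.00590). No gene overlapped between the groups, and knockout replicate 2 was the highest in all 4. That library also held the highest sums of markers of gamma-delta T cells (83.8 FPKM, against 28.1 and 40.4 in the other knockouts and 3.88 to 4.02 in controls), of NK and NKT cells (195 FPKM, against 51.7 and 61.1 in the other knockouts and 26.4 to 28.3 in controls) and of thymic stroma (26.1 FPKM, against 13.9 and 15.9 in the other knockouts and 9.24 to 10.9 in controls). The NK sum was mostly Gzma, which was not called. Nkg7, a granule protein of cytotoxic cells, was called higher, with 1.86, 1.98 and 2.14 FPKM in Vav knockouts, against 0.534, 0.866 and 0.608 FPKM in controls. Klrb1c, Klrd1, Tbx21 and Eomes, at 1.17 FPKM or less, were higher in each knockout than in each control, and Ncr1 was at 0 in all libraries. Of these, Klrd1 and Eomes were near the floor, at 0.0822 FPKM or less. Prf1, Gzmb and Zbtb16 overlapped between the groups, and Prf1 was tested and not called. The gamma-delta sum was mostly Tcrg-C1 and Tcrg-C2. Of these, Tcrg-C1 was not called, with 7.36, 41.7 and 4.66 FPKM in Vav knockouts, against 1.87, 1.36 and 1.24 FPKM in controls. The stroma sum was mostly Pecam1 and Col1a2, with Pdgfra at 0. Col1a2 was not called. Epcam, another stroma marker, was called lower, with 0.317, 0.315 and 0.261 FPKM in Vav knockouts, against 1.29, 1.23 and 1.27 FPKM in controls. Krt5, Krt8, Foxn1, Psmb11 and Col1a1 were at 0.267 FPKM or less and overlapped between the groups. The part of such cells in these results was not tested. The count of rises in the actin list without knockout replicate 2 was 7, and those in the adhesion list 9. The actin rises numbered 4 without any 1 of the controls or knockout replicate 1, and 5 of 52 without chromosome 15.

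Among guidance receptors there were more falls than rises. Of 15 tested ephrin, semaphorin, plexin and netrin receptor genes, 4 fell and 1 rose, beside 6.08% falls over all genes, although the median was 0.07. Unc5cl and Plxnb2 passed the filter only through the group where they were high, so these counts were partly fixed by it. Epha2, an ephrin receptor, had 1.61, 1.6002 and 3.69 FPKM in Vav knockouts, against 17.2, 17.4 and 17.3 FPKM in controls (log2 change -2.53, SE 0.225, adjusted p = 0.00221). Plxnd1, the plexin that steers double-positive cells towards the medulla (chr6:115954811-115995005), had 82.4, 59.5 and 65.2 FPKM in Vav knockouts, against 162, 164 and 172 FPKM in controls (log2 change -1.26, SE 0.120, adjusted p = 0.00277). Unc5cl, a relative of netrin receptors, had 0.323, 0.258 and 0.0242 FPKM in Vav knockouts, against 3.46, 1.85 and 2.599 FPKM in controls (log2 change -1.58, SE 0.186, adjusted p = 0.00468). The knockouts lay far below the controls in all 3. The rise was Plxnb2, a semaphorin receptor on chromosome 15, with 1.15, 2.27 and 1.35 FPKM in Vav knockouts, against 0.0400, 0.0531 and 0.0382 FPKM in controls (log2 change 1.29, SE 0.165, adjusted p = 0.00580).

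**Figure D4:**
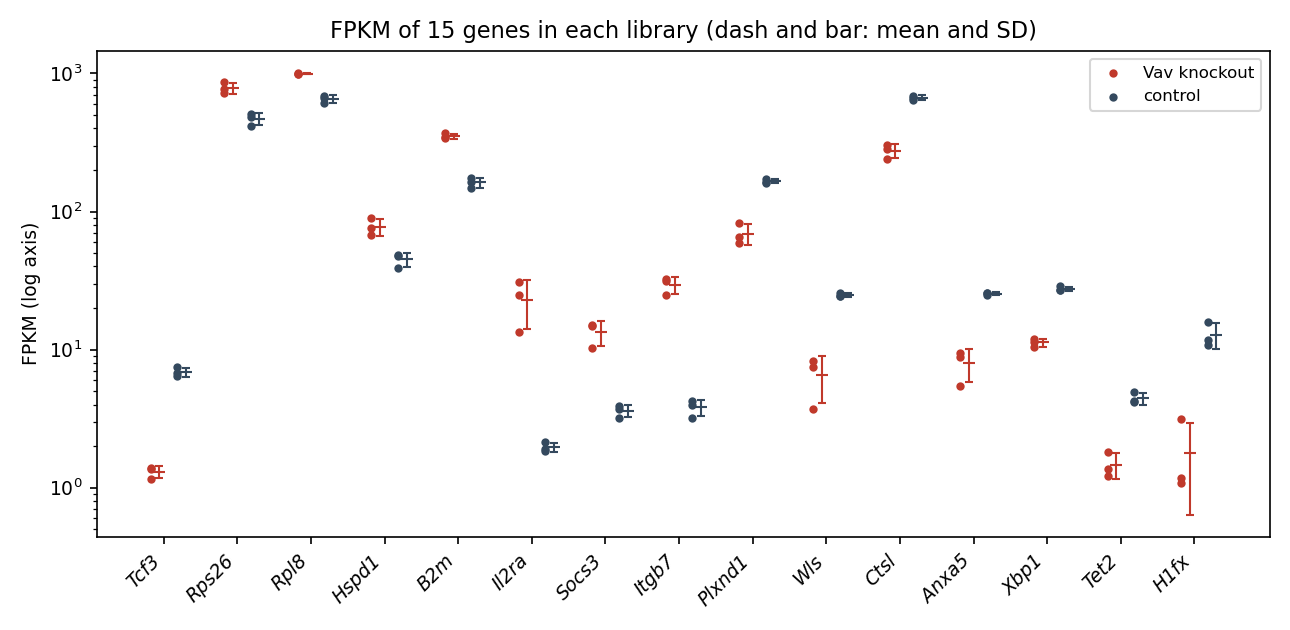
FPKM of 15 genes (horizontal axis) in each library on a log axis (vertical axis), with the 3 Vav knockouts left of the 3 controls and a dash and bar for the mean and SD. The groups do not overlap for any of these genes, with Ctsl at 241 to 305 FPKM in Vav knockouts and 639 to 692 FPKM in controls.

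Genes of T cell receptor signalling held more falls than rises. Of 45 genes of proximal receptor signalling, 6 fell and 2 rose (median -0.09), beside 6.08% lower and 7.63% higher over all genes, and 13 fell after scaling to the same sum. Skap2, an adaptor, had 2.55, 1.71 and 1.68 FPKM in Vav knockouts, against 5.55, 5.43 and 5.96 FPKM in controls (log2 change -1.17, SE 0.120, adjusted p = 0.00344). Cd6, a co-receptor that tunes the signal, had 34.8, 27.01 and 32.6 FPKM in Vav knockouts, against 49.7, 50.1 and 49.3 FPKM in controls (log2 change -0.65, SE 0.0938, adjusted p = 0.00833). The rises were the adaptor Fyb, on chromosome 15, with 99.4, 114 and 100.4 FPKM in Vav knockouts, against 64.7, 54.2 and 54.6 FPKM in controls (log2 change 0.85, SE 0.0936, adjusted p = 0.00412), and the adhesion receptor Cd2, with 53.99, 56.9 and 53.95 FPKM in Vav knockouts, against 36.8, 39.9 and 37.2 FPKM in controls (log2 change 0.52, SE 0.0557, adjusted p = 0.00364). All 4 separated the groups. Of 35 calcium and NFAT genes, 6 fell and 1 rose (median -0.09), beside 6.08% lower and 7.63% higher over all genes. After scaling to the same sum 9 fell. Itpr1, the calcium channel of the endoplasmic reticulum, had 11.7, 16.5 and 12.5 FPKM in Vav knockouts, against 28.6, 22.9 and 23.2 FPKM in controls (log2 change -0.84, SE 0.144, adjusted p = 0.0140), a call lost without control replicate 1 or knockout replicate 3 (highest adjusted p = 0.0519). Without control replicate 2 or 3 the proximal list had 3 falls. Its rises numbered 4 without control replicate 1 or knockout replicate 2, and 1 without chromosome 15. The calcium falls numbered 1, 1 and 2 without control replicates 1, 2 and 3 and 0 without knockout replicate 3.

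The phosphoinositide 3-kinase, AKT and mTOR list had 6 falls and 4 rises among 33 (median -0.05), and 8 falls and 2 rises after scaling to the same sum. Over all genes 6.08% fell and 7.63% rose. Without control replicates 1, 2 and 3 it had 2, 1 and 1 falls and 1, 1 and 0 rises, and without knockout replicate 3 it had 3 falls. Pik3r5, a regulatory subunit of the G protein-coupled kinase, had 13.4, 11.7 and 11.9 FPKM in Vav knockouts, against 17.5, 18.4 and 18.8 FPKM in controls (log2 change -0.53, SE 0.0667, adjusted p = 0.00558). Inpp5d, the lipid phosphatase SHIP1, had 3.81, 2.31 and 3.75 FPKM in Vav knockouts, against 6.51, 6.62 and 6.73 FPKM in controls (log2 change -0.85, SE 0.147, adjusted p = 0.0144), and its call was lost without any 1 of the controls (highest adjusted p = 0.0586). In WNT signalling 3 of 22 rose and 2 fell, beside 7.63% higher and 6.08% lower over all genes. There was 1 fall without any 1 of the controls and there were 3 falls after scaling to the same sum. Wls, which carries WNT ligands to the surface (chr3:159839672-159938664), had 8.28, 3.73 and 7.53 FPKM in Vav knockouts, against 24.6, 25.8 and 24.3 FPKM in controls (log2 change -1.84, SE 0.244, adjusted p = 0.00629), and Lef1, a nuclear partner of beta-catenin, had 31.2, 25.6 and 30.6 FPKM in Vav knockouts, against 19.6, 20.5 and 20.2 FPKM in controls (log2 change 0.51, SE 0.0818, adjusted p = 0.0115). The Wls values did not overlap, with knockout replicate 2 the lowest, and Lef1 was no longer called without control replicate 1 (adjusted p = 0.0501). Of 27 MAPK genes, 3 rose and 2 fell, beside 7.63% higher and 6.08% lower over all genes. After scaling to the same sum 2 rose and 4 fell. There were 1 rise and 0 falls without any 1 of the controls or knockout replicate 3, and 1 fall without knockout replicate 2. Dusp10, a phosphatase of stress-activated kinases, had 27.2, 26.2 and 31.1 FPKM in Vav knockouts, against 12.4, 14.6 and 13.2 FPKM in controls (log2 change 1.02, SE 0.0866, adjusted p = 0.00195).

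Cyclic AMP and G protein signalling had 7 falls and 5 rises among 33 (16 positive values, so the median lay close to 0), beside 6.08% lower and 7.63% higher over all genes. Without control replicates 1, 2 and 3 the falls numbered 3, 2 and 2 and the rises 2, 2 and 2, and without knockout replicate 3 there were 4 falls. Pde7a, a cyclic AMP phosphodiesterase, had 2.17, 1.75 and 1.99 FPKM in Vav knockouts, against 3.67, 4.12 and 4.11 FPKM in controls (log2 change -0.74, SE 0.0802, adjusted p = 0.00375). Gpr171, a G protein-coupled receptor, had 5.24, 5.09 and 4.46 FPKM in Vav knockouts, against 7.42, 7.22 and 7.16 FPKM in controls (log2 change -0.48, SE 0.0674, adjusted p = 0.00765). P2rx7, the ATP-gated channel, rose, with 1.57, 1.28 and 1.81 FPKM in Vav knockouts, against 0.367, 0.562 and 0.429 FPKM in controls (log2 change 0.81, SE 0.110, adjusted p = 0.00684). None of the 3 overlapped. Costimulatory and inhibitory receptors had 3 rises and 3 falls among 23, beside 7.63% higher and 6.08% lower over all genes. The falls numbered 0 without any 1 of the controls and 1 without knockout replicate 1 or 3, and the rises 1 without control replicate 2 or 3 or knockout replicate 2. Icos, a costimulatory receptor, had 4.502, 4.47 and 5.704 FPKM in Vav knockouts, against 2.19, 2.62 and 2.33 FPKM in controls (log2 change 0.80, SE 0.101, adjusted p = 0.00573). Smad3, a signal transducer of TGF-beta receptors, rose, with 21.9, 22.9 and 22.2 FPKM in Vav knockouts, against 12.8, 14.9 and 14.9 FPKM in controls (log2 change 0.62, SE 0.0702, adjusted p = 0.00425). Of 38 transcription factors of thymocytes, 4 rose and 4 fell (median -0.10), beside 7.63% higher and 6.08% lower over all genes. After scaling to the same sum 3 rose and 8 fell. The falls numbered 0 without any 1 of the controls and 1 without knockout replicate 3, and the rises 2 without control replicate 1. Runx3, a factor of the CD8 lineage, had 1.92, 2.82 and 3.62 FPKM in Vav knockouts, against 0.579, 0.553 and 0.583 FPKM in controls (log2 change 1.24, SE 0.165, adjusted p = 0.00635). Its knockout values spread more than its control values and lay above all of them.

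Several lists of stress and degradation genes held large falls in few members. In lysosome and autophagy, 5 of 36 fell and 3 rose (median -0.04), while the summed FPKM was 1132, 1109 and 1167 in Vav knockouts, against 1549, 1530 and 1500 in controls. The gap in Ctsl alone was of that size. The lysosome counts stand beside 6.08% lower and 7.63% higher over all genes, and after scaling to the same sum 5 fell and 1 rose. The falls numbered 3 without control replicate 3, and the rises 1 without control replicate 1 or knockout replicate 3 and 0 without control replicate 2 or 3. Ctsl, cathepsin L, known for cleaving the invariant chain in cortical epithelial cells (chr13:64359337-64370890), had 283, 241 and 305 FPKM in Vav knockouts, against 692, 669 and 639 FPKM in controls (log2 change -1.28, SE 0.104, adjusted p = 0.00176). Laptm4b, a lysosomal membrane protein on chromosome 15, had 0.811, 1.51 and 1.197 FPKM in Vav knockouts, against 6.75, 6.55 and 6.12 FPKM in controls (log2 change -1.79, SE 0.123, adjusted p = 0.00124). Both fell in every knockout. Of the 8 tested S100 and annexin genes, calcium-binding proteins at membranes, 4 fell and 1 rose (median -0.40), beside 6.08% lower over all genes. S100a11 (chr3:93520488-93526287) had 2.17, 2.07 and 2.03 FPKM in Vav knockouts, against 8.43, 8.43 and 8.77 FPKM in controls (log2 change -1.63, SE 0.0544, adjusted p = 0.000162). Anxa5 (chr3:36448923-36475894), which binds phosphatidylserine, had 9.51, 5.49 and 8.85 FPKM in Vav knockouts, against 24.7, 25.6 and 25.9 FPKM in controls (log2 change -1.59, SE 0.177, adjusted p = 0.00412). The libraries of each group lay close together for S100a11, while knockout replicate 2 was the lowest for Anxa5. The falls of this family numbered 2 without control replicate 2 or 3 or knockout replicate 1, and its rise was not called without any 1 of the controls, without knockout replicate 1 or after scaling to the same sum.

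Death receptor and caspase genes had 4 falls and 2 rises among 21, and 4 and 1 after scaling to the same sum. The counts of this and the next 3 lists stand beside 6.08% lower and 7.63% higher over all genes. The falls numbered 2 without any 1 of the controls or knockout replicate 3, and the rises 1 without any 1 of the controls or knockout replicate 1. Fas, a death receptor, had 40.01, 37.6 and 40.6 FPKM in Vav knockouts, against 53.7, 52.9 and 52.1 FPKM in controls (log2 change -0.42, SE 0.0524, adjusted p = 0.00551). Its lower values were clear of the controls. Of 24 genes of the unfolded protein response, 3 fell and 1 rose. The rise lies on chromosome 15 and was not called without any 1 of the controls or knockout replicate 1 or 3, and 2 rose without knockout replicate 2. Scaling to the same sum gave 5 falls and 0 rises. Xbp1, the transcription factor of the IRE1 branch (chr11:5520659-5525893), had 11.9, 10.4 and 11.4 FPKM in Vav knockouts, against 27.2, 28.7 and 27.1 FPKM in controls (log2 change -1.23, SE 0.0625, adjusted p = 0.000412). Eif2ak3, the kinase PERK, had 8.48, 6.73 and 7.39 FPKM in Vav knockouts, against 12.4, 11.1 and 11.03 FPKM in controls (log2 change -0.56, SE 0.0907, adjusted p = 0.0119). Of 15 circadian clock genes, 4 fell and 0 rose (median -0.16), with 2 falls without control replicate 1 or 3. The nuclear receptor Nr1d1, a repressor of the clock loop, had 1.46, 1.38 and 2.11 FPKM in Vav knockouts, against 4.15, 3.37 and 3.57 FPKM in controls (log2 change -0.83, SE 0.125, adjusted p = 0.00942), and its relative Nr1d2 had 7.52, 7.69 and 7.27 FPKM in Vav knockouts, against 13.96, 11.3 and 11.003 FPKM in controls (log2 change -0.62, SE 0.0917, adjusted p = 0.00896). The time of day at collection is not in the labels, and its part was not tested. In the hypoxia list 3 of 17 fell and 0 rose, and 1 fell without control replicate 2 or 3 or knockout replicate 1. Bnip3, a mitochondrial protein of hypoxia and mitophagy, had 0.538, 0.695 and 0.755 FPKM in Vav knockouts, against 1.85, 1.697 and 1.85 FPKM in controls (log2 change -0.75, SE 0.0866, adjusted p = 0.00446).

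Of 46 polycomb, DNA methylation and histone-modifying genes 3 rose and 4 fell, a share of 15.2% that lies near the 13.7% over all genes. Without any 1 of the controls 1 rose and 2 fell, without knockout replicate 1 there was 1 rise, and without knockout replicate 3 there were 2 falls. Tet2, which oxidises methylated cytosine (chr3:133463679-133545139), had 1.37, 1.21 and 1.81 FPKM in Vav knockouts, against 4.94, 4.14 and 4.24 FPKM in controls (log2 change -1.15, SE 0.112, adjusted p = 0.00294). Smarca4, the BRG1 motor of the BAF complex, had 20.5, 18.6 and 19.1 FPKM in Vav knockouts, against 33.3, 26.9 and 27.4 FPKM in controls (log2 change -0.56, SE 0.0909, adjusted p = 0.0118). Bmi1, a polycomb protein, rose, with 9.22, 10.3 and 9.797 FPKM in Vav knockouts, against 6.48, 6.33 and 6.03 FPKM in controls (log2 change 0.56, SE 0.0597, adjusted p = 0.00363). The groups were apart in each. Of the 22 tested genes of the histone list, 2 fell and 0 rose, beside 6.08% lower and 7.63% higher over all genes. Both were linker histones, which sit between nucleosomes. Hist1h4b, a histone H4 gene outside that list, was called higher, with means of 1.46 FPKM in Vav knockouts and 0.755 FPKM in controls (log2 change 0.48, adjusted p = 0.0398). It was under 1 FPKM in all controls, so it passed the filter only through the knockouts. H1fx (chr6:87980421-87981637) had 3.13, 1.08 and 1.18 FPKM in Vav knockouts, against 15.9, 11.8 and 10.7 FPKM in controls (log2 change -2.36, SE 0.283, adjusted p = 0.00493), and H1f0, on chromosome 15, had 20.9, 21.05 and 15.8 FPKM in Vav knockouts, against 66.2, 44.4 and 39.96 FPKM in controls (log2 change -1.31, SE 0.202, adjusted p = 0.0101). Control replicate 1 was the highest and knockout replicate 1 was at or near the top of its group for both. In retinoid metabolism 2 of 10 fell and 1 rose, the rise not being called without control replicate 2 or 3 or knockout replicate 3. The larger fall was Dhrs3, which reduces retinal, with 2.73, 0.784 and 2.198 FPKM in Vav knockouts, against 16.9, 15.4 and 14.4 FPKM in controls (log2 change -2.58, SE 0.262, adjusted p = 0.00330).

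Enzymes of surface glycans changed in both directions, with 4 falls and 3 rises among 31, beside 6.08% lower and 7.63% higher over all genes. The falls numbered 10 without knockout replicate 2, 2 without control replicate 1 or 2, and 9 after scaling to the same sum. Without chromosome 15 there were 4 falls and 1 rise among 28. St6galnac3, a sialyltransferase, had 0.235, 0.909 and 1.13 FPKM in Vav knockouts, against 3.83, 3.13 and 3.46 FPKM in controls (log2 change -1.38, SE 0.205, adjusted p = 0.00896). St3gal2, another sialyltransferase, rose, with 4.897, 3.78 and 4.096 FPKM in Vav knockouts, against 1.91, 2.52 and 2.42 FPKM in controls (log2 change 0.68, SE 0.111, adjusted p = 0.0119). Ugcg, which makes glucosylceramide, had 16.4, 16.3 and 17.9 FPKM in Vav knockouts, against 24.1, 23.4 and 23.3 FPKM in controls (log2 change -0.46, SE 0.0543, adjusted p = 0.00467). The groups of these 3 genes stayed apart. Solute carriers had 14 rises and 14 falls among 149 tested members, beside 7.63% higher and 6.08% lower over all genes. After scaling to the same sum there were 11 rises and 20 falls. Without control replicates 1, 2 and 3 the rises numbered 7, 6 and 6 and the falls 8, 6 and 7, and without knockout replicate 3 there were 9 rises. Without chromosome 15 there were 10 rises among 141. The falls included Slc30a4, a zinc transporter, with 2.602, 1.09 and 1.51 FPKM in Vav knockouts, against 8.18, 7.01 and 7.12 FPKM in controls (log2 change -1.66, SE 0.193, adjusted p = 0.00457). Slc22a17, a lipocalin receptor, had 0.201, 0.196 and 0.244 FPKM in Vav knockouts, against 2.21, 1.71 and 1.63 FPKM in controls (log2 change -1.23, SE 0.105, adjusted p = 0.00195). Slc5a9, a sodium-dependent sugar transporter, had 3.38, 5.14 and 3.07 FPKM in Vav knockouts, against 15.3, 10.7 and 10.5 FPKM in controls (log2 change -1.44, SE 0.199, adjusted p = 0.00725). Slc35f2 rose, with 6.65, 6.28 and 6.15 FPKM in Vav knockouts, against 2.16, 2.42 and 2.55 FPKM in controls (log2 change 1.12, SE 0.0686, adjusted p = 0.000865). Cdk20, a cyclin-dependent kinase, fell, with 20.4, 14.5 and 23.7 FPKM in Vav knockouts, against 54.8, 52.3 and 53.1 FPKM in controls (log2 change -1.43, SE 0.162, adjusted p = 0.00423).

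Genes described elsewhere as targets of E proteins held more falls than rises. Of 14 tested, 6 fell and 2 rose (median -0.40), beside 6.08% lower over all genes, and 3 fell without control replicate 1 or 2. Ptcra, Rag1, Rag2 and Cd4, among the falls, were also counted above as T lineage markers. Ptcra, which encodes the alpha chain of the pre-T cell receptor, had 10.1, 9.86 and 7.17 FPKM in Vav knockouts, against 20.4, 22.6 and 23.3 FPKM in controls (log2 change -1.21, SE 0.127, adjusted p = 0.00354). Rag1 and Rag2 form the recombinase; Rag1 had 884, 784 and 892 FPKM in Vav knockouts, against 1276, 1225 and 1188 FPKM in controls (log2 change -0.53, SE 0.0978, adjusted p = 0.0175), and Rag2 had 40.7, 35.4 and 45.03 FPKM in Vav knockouts, against 61.2, 65.02 and 59.3 FPKM in controls (log2 change -0.61, SE 0.0939, adjusted p = 0.0101). The recombinase pair remained abundant in all knockouts although lower than in each control. Id3, an inhibitor of E proteins, had 12.02, 15.9 and 12.4 FPKM in Vav knockouts, against 21.97, 21.01 and 20.7 FPKM in controls (log2 change -0.63, SE 0.104, adjusted p = 0.0121). Cd4 had 282, 237 and 279 FPKM in Vav knockouts, against 377, 362 and 364 FPKM in controls (log2 change -0.47, SE 0.0880, adjusted p = 0.0179). Cd79b, a B cell receptor component that E proteins are known to drive, had 0.445, 0.208 and 0.459 FPKM in Vav knockouts, against 6.47, 5.71 and 6.01 FPKM in controls (log2 change -2.37, SE 0.0988, adjusted p = 0.000266). The rises were Socs3, given above, and Notch1, with 36.1, 59.4 and 40.6 FPKM in Vav knockouts, against 16.2, 15.2 and 16.2 FPKM in controls (log2 change 1.43, SE 0.173, adjusted p = 0.00507). Calls were lost for Rag1 without any 1 of the controls or knockout replicate 3 (highest adjusted p = 0.0851), for Cd4 without any 1 of the controls (highest adjusted p = 0.0760) and for Id3 without control replicate 1 or 2 (highest adjusted p = 0.0549).

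Because E proteins bind E-boxes, the 250 bases before the RefSeq start of each gene were searched for the letters CANNTG, and within these for CAGCTG and for CACCTG or its reverse complement CAGGTG, on both strands. RefSeq promoters of GRCm38.p6 matched 7700 of the 10828 tested genes (71.1%) and 456 of the 658 lower genes (69.3%), under the 80% needed, so a comparison of motif shares between called and other genes is void. Of the 7700 promoters, 55.5% held CANNTG, 10.4% CAGCTG, 14.3% CACCTG or CAGGTG and 23% at least 1 of these last forms. The promoters of 4 genes that fell are shown as examples of windows that hold such letters, 5′ to 3′ on the strand of the gene, with the letters in capitals. They are Unc5cl at chr17:48454651-48454900 on the plus strand (log2 change -1.58), Cdk20 at chr13:64432303-64432552 on the plus strand (-1.43), St6galnac3 at chr3:153725134-153725383 on the minus strand (-1.38) and Xbp1 at chr11:5520391-5520640 on the plus strand (-1.23). GENCODE starts of Cdk20 and St6galnac3 lie further upstream, so 239 bases of the Cdk20 window and 41 of the St6galnac3 window fall inside the GENCODE gene.
Unc5cl: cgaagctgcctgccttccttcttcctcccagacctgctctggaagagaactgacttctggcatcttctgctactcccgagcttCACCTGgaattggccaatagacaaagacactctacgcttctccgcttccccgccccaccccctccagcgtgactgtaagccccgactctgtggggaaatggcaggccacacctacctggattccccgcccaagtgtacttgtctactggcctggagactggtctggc
Cdk20: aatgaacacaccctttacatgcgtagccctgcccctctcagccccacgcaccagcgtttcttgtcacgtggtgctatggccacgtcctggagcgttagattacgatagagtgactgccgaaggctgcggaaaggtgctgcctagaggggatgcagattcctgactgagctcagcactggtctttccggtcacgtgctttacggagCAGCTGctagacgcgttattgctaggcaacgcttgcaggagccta
St6galnac3: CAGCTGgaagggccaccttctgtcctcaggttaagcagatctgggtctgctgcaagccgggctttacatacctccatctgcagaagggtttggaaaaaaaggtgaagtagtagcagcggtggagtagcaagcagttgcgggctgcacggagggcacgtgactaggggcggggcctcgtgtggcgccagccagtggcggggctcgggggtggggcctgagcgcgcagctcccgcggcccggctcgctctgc
Xbp1: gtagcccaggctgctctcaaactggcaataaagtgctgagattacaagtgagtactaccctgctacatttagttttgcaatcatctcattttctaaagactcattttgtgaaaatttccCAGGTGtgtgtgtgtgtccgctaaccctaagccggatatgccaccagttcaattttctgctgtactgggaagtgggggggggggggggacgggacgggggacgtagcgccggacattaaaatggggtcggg
A match is a description, not a site or a cause, and binding was not measured in these libraries. The Unc5cl window holds CACCTG, those of Cdk20 and St6galnac3 hold CAGCTG, and that of Xbp1 holds CAGGTG.

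Segments of the T cell receptor alpha locus held more falls than rises, with the lowest median in the distal part of the locus, although most segments were not called. Of 119 tested alpha segments, 31 fell and 1 rose (median -0.65), beside 6.08% falls over all genes. Ordered by position along the locus on chromosome 14, the 20 distal Trav segments, joined in later rounds of rearrangement, had 12 falls and 0 rises (median -0.97), with sums of 54.1, 32.3 and 55.5 FPKM in Vav knockouts, against 125, 114 and 112 FPKM in controls. The 20 middle segments had 8 falls and 0 rises (median -0.73), with sums of 58.4, 36.3 and 61.7 FPKM in Vav knockouts, against 90.5, 91.6 and 83.7 FPKM in controls. The 20 proximal segments had 6 falls and 1 rise (median -0.52), with sums of 98.0, 85.2 and 96.5 FPKM in Vav knockouts, against 134, 134 and 129 FPKM in controls. The sums did not overlap in any of the 3 sections, and knockout replicate 2 was the lowest in each. Over all 60 Trav segments, 26 fell and 1 rose. The 59 tested Traj segments had 5 falls and 0 rises (median -0.58), but their sums overlapped, at 832, 1248 and 969 FPKM in Vav knockouts, against 1813, 1182 and 1335 FPKM in controls. Many Trav segments are duplicated copies, so single segments are uncertain. Of those called lower, Trav1, Trav6n-5, Trav6d-4, Trav6-5, Trav7-2 and Trav9-1 were under 1 FPKM in all knockouts. They passed the filter only through the controls. The 31 falls became 15, 13 and 18 without control replicates 1, 2 and 3. Differences between the 3 sections were not tested. Of 32 beta segments, 3 fell and 1 rose (median -0.49), beside 6.08% lower and 7.63% higher over all genes. The beta falls numbered 9 without knockout replicate 1 and 12 without knockout replicate 2. Gamma and delta segments went the other way, with 8 rises and 1 fall among 17 (median 0.72), the fall not being called without any 1 of the controls. The gamma segments Tcrg-V1, Tcrg-V4, Tcrg-C4 and Trgj4, all called higher, were under 1 FPKM in all controls. They passed the filter only through the knockouts.

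**Figure D5:**
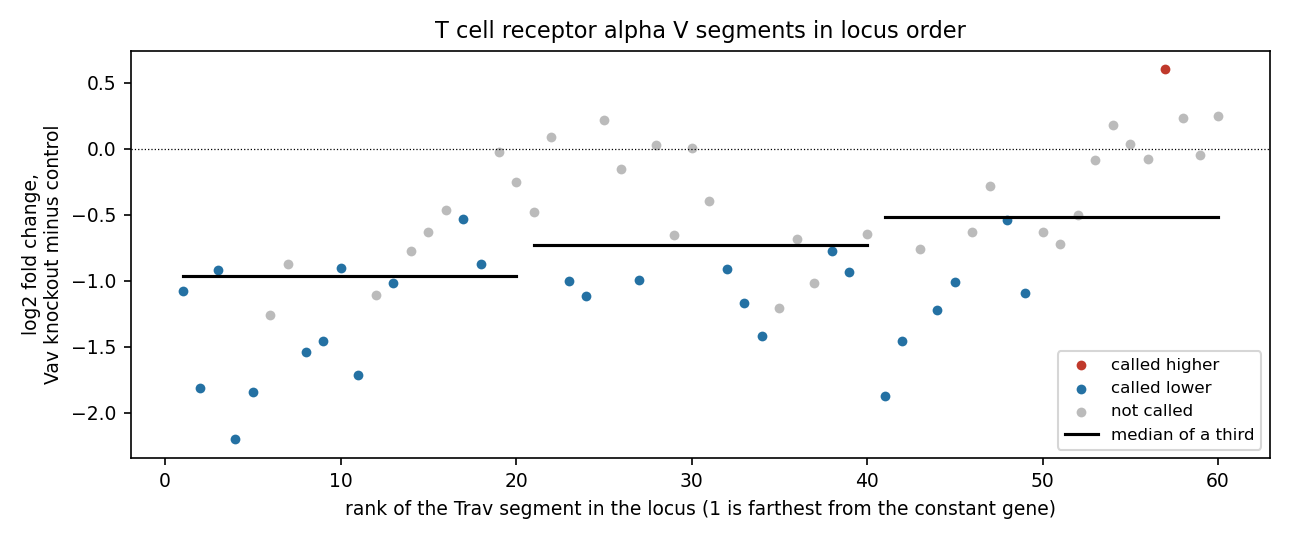
Log2 change of each of the 60 tested Trav segments (vertical axis, knockout minus control) in locus order, where rank 1 is farthest from the constant gene (horizontal axis), with called segments in colour and the median of each section as a line. Medians are -0.97, -0.73 and -0.52 in the distal, middle and proximal sections.

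Markers of neighbouring T cell stages and of other cells are given by list, and several of their sums rested on few genes. T lineage markers had 5 falls and 0 rises among 13, and 3 falls without any 1 of the controls, with sums of 4287, 3631 and 4203 FPKM in Vav knockouts, against 4946, 5025 and 4899 FPKM in controls. Mature single-positive markers had 8 rises and 0 falls among the 9 tested, with sums over the whole list of 11 of 93.9, 80.04 and 90.6 FPKM in Vav knockouts, against 58.0, 57.9 and 54.1 FPKM in controls. Klf2, S1pr1, Il7r and Runx3 were under 1 FPKM in all controls, so they passed the filter only through the knockouts. The count of rises was thus partly fixed by the filter. Gimap3, a GTPase of lymphocyte survival, had 12.2, 8.22 and 10.8 FPKM in Vav knockouts, against 2.65, 2.799 and 2.12 FPKM in controls (log2 change 1.68, SE 0.145, adjusted p = 0.00202). Klf2, a factor of thymic exit, had 4.81, 4.75 and 2.72 FPKM in Vav knockouts, against 0.873, 0.595 and 0.766 FPKM in controls (log2 change 1.52, SE 0.185, adjusted p = 0.00508). Zbtb7b, which defines the CD4 lineage, was below the limit for testing, with 0.272, 0.326 and 0.166 FPKM in Vav knockouts, against 0.0310, 0.0392 and 0.0446 FPKM in controls. Among gamma-delta markers, Tcrg-C4 and Cd163l1 were under 1 FPKM in all controls, so they passed the filter only through the knockouts. Sox13, Maf and Blk were below the limit for testing. Of the 4 tested, 3 rose and 0 fell, a count thus partly fixed by the filter. Among these Cd163l1, a scavenger receptor, had 1.91, 7.001 and 4.83 FPKM in Vav knockouts, against 0.0339, 0.0408 and 0.00773 FPKM in controls (log2 change 2.32, SE 0.344, adjusted p = 0.00899); it was near 0 in controls. Early progenitor and leukaemia-linked factors had 5 of 27 members tested, of which 3 rose and 1 fell (0 without any 1 library), and the largest was Ly6d on chromosome 15, with 549, 451 and 455 FPKM in Vav knockouts, against 88.95, 68.4 and 77.4 FPKM in controls (log2 change 2.62, SE 0.124, adjusted p = 0.000372). Dtx1, a Notch target, had 23.01, 20.8 and 10.7 FPKM in Vav knockouts, against 1.07, 1.59 and 1.47 FPKM in controls (log2 change 2.95, SE 0.271, adjusted p = 0.00251). Sums of regulatory T cell markers were 11.4, 16.9 and 13.5 FPKM in Vav knockouts, against 9.45, 9.39 and 9.10 FPKM in controls, with Foxp3 at 0.0774 FPKM or less. Ikzf2, the largest member, and Il2rb were called higher, while Tnfrsf18 and Tnfrsf4 were not called. Il2rb was under 1 FPKM in all controls, so it passed the filter only through the knockouts. B cell markers summed to 69.7, 138 and 78.5 FPKM in Vav knockouts, against 170, 185 and 179 FPKM in controls, mostly from Ighm, with Ms4a1 and Pax5 at 0.00677 FPKM or less. Dendritic cell markers summed to 1.67 to 3.30 FPKM in Vav knockouts and 0.696 to 0.892 FPKM in controls, macrophage and granulocyte markers to 3.84 to 4.67 FPKM in Vav knockouts and 2.34 to 3.03 FPKM in controls, and erythroid markers to 17.7 to 25.7 FPKM in Vav knockouts and 16.9 to 21.1 FPKM in controls. In Vav knockouts the dendritic sum was mostly H2-Ab1, while Itgax, Flt3, Siglech, Xcr1 and Zbtb46 were at 0.0506 FPKM or less in all libraries. The macrophage and granulocyte sum was mostly Itgam, called higher, and Cd68, not called. The erythroid sums overlapped between the groups. The part of other cells in the gene groups was not tested.

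The Vav effect was set against the effect of deletion by Lck-Cre, which acts later, in developing T cells, measured at the same age in 3 LckCre E2aF/F and 3 E2aF/F libraries. The difference of the effects (Vav minus Lck) was tested as an interaction over the 12 libraries for 10541 genes. It was called positive for 174 and negative for 174 genes, 3.3% in all and 1.65% each way, and positive for 102 after chromosome 15 was left out of the fit. Single libraries moved these counts. Without Vav knockout replicate 2 they were 231 and 266, without Vav control replicate 2 they were 96 and 96, and without Vav control replicate 3 they were 93 and 93. They were 118 and 109 without Lck knockout replicate 2, and 97 and 100, 124 and 112 and 114 and 105 without Lck control replicates 1, 2 and 3. Among cytosolic ribosomal proteins 2 of 78 differences were called positive, among translation factors 6 of 49, among cytokine receptor genes 6 of 35 and among integrin and adhesion genes 4 of 30, with 1 negative there. In the Lck comparison 22 of the 10541 genes were called higher (0.209%) and 85 lower (0.806%). Of these, 15 were also Vav rises and 65 also Vav falls, which is a small share of the Vav calls and most of the Lck calls. The number of Lck calls does not measure the size of the Lck changes alone. For example, Ly6d changed by 1.14 and Il2ra by 0.65 under Lck-Cre without being called (limma adjusted p = 0.0614 and 0.112). The floxed gene itself had changes of -1.77 under Vav-Cre and -1.93 under Lck-Cre. Socs3 changed by 1.62 under Vav-Cre and -0.40 under Lck-Cre, a difference of 2.02 (adjusted p = 0.000922). Wls changed by -1.84 under Vav-Cre and 0.01 under Lck-Cre, a difference of -1.86 (adjusted p = 0.00590). H1fx changed by -2.36 under Vav-Cre and 0.31 under Lck-Cre, a difference of -2.67 (adjusted p = 0.00685). For Epha2, with -2.53 under Vav-Cre and -2.21 under Lck-Cre, the difference of -0.32 was not called (adjusted p = 0.609).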

How the data were processed

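RNA extraction used RNeasy mini kits and library construction the Ovation Ultralow system of NuGEN, as the labels' protocols state. The authors deposited an FPKM value for each gene and library, with these 6 libraries in a table of their own and the Lck libraries in another. The submitters' processing notes name the build mm10 and the tools STAR, DESeq2, Trimmomatic 0.33 and HTSeq 0.6.1, with neither role nor order. Gene lengths, annotation and strand use are not given in the sources used here, so overlapping and antisense genes cannot be told apart.

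Read counts were not recovered, since only 56.0% to 57.6% of the low values came out as whole reads (tolerance 0.03). Every column of sample values had a sample (0 without one), and the table of older and transplanted mice was not used here. The test was limma 3.58.1 with a trended prior, run in R 4.3.3 on log2(FPKM + 1), in genes at 1 FPKM or more in at least 3 libraries. Fold changes on that scale understate those of low genes. Adjusted p-values (Benjamini-Hochberg) under 0.05 were called. The effects of Vav and Lck deletion were compared as an interaction over 12 libraries with the table as a term. On simulated data of the Vav comparison (10828 genes), 90 of 100 changes of 1 and 97 of 100 changes of 2 on the log2 scale were recovered, with 14 unchanged genes called. In the interaction (10541 genes) these were 93, 98 and 5. In both simulations the changed genes were drawn only from those at a mean of 5 FPKM or more, with independent normal noise for each gene. Recovery in lower genes, or of changes under 1 such as most calls here, was thus not measured.

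Gene positions came from the GENCODE annotation of mm10. The gene lists (51), families (33) and members were chosen with earlier results of these data known, and lists are described by counts and medians with no test. Named genes were Tcf3, up to 4 called members of each list by size of change (up to 3 each way where calls went both ways, up to 2 in lists with few calls) and the most abundant called genes, of which a few are not reported here. Same-numbered libraries of the groups did not deviate together (correlations of -0.06, -0.11 and 0.07), so they were not treated as pairs. Alternatives were other pseudocounts, filters, scalings, variance settings and omissions of single libraries. Counts without knockout replicate 2 for each list were added after the data were seen.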

Additional observations from a re-analysis of the deposited data

Results flagged for a closer look

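Of the 100 genes named, 93 had a tested difference between the Vav effect and the Lck effect (Vav minus Lck, log2 scale, limma interaction over 12 libraries), and 46 of these passed an adjusted p of 0.05. Over all 10541 genes the share was 3.3%. Apart from Tcf3, the genes were named because they were called from the same Vav libraries, most of them by size of change. A share above that over all genes was thus partly built in by the choice. The size of each is given here and the causes were not tested. Both tables have their own controls, and all libraries compared were of 4 weeks of age.

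Among receptors and surface molecules the difference was 2.30 for Il2ra, 2.12 for Itgb7, 1.96 for Il7r, 1.797 for Sdc4, 1.48 for Ly6d, 1.32 for Notch1, 0.94 for Icos and 0.39 for Cd2. It was -1.18 for Itga5, -0.70 for Plxnd1, -1.28 for Unc5cl, -2.04 for Cd79b and -0.74 for Gpr171. Itgb7, Il7r, Ly6d and Itga5 lie on chromosome 15, which was raised in the Vav knockouts.

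Among signalling genes and regulators the difference was 2.02 for Socs3, 1.87 for Gimap3, 0.89 for Dusp10, 0.83 for Fyb and 0.57 for Zbp1, and on the negative side -1.35 for Skap2, -0.37 for Pik3r5, -0.73 for Pde7a, -1.86 for Wls, -0.53 for Xbp1 and -1.07 for Tet2. The linker histones stood at -2.67 for H1fx and -1.23 for H1f0.

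In protein synthesis it was 0.78 for Pabpc1, 0.43 for Eif3e, 0.56 for Rpl35, 0.50 for Rpl8 and 0.45 for Mrps15. Pabpc1, Eif3e and Rpl8 are chromosome 15 genes. In antigen presentation it was 0.94 for B2m and 0.41 for H2-D1. Metabolic and structural genes had 0.51 for Adsl, 0.42 for Elovl5, 0.68 for Tmsb10, 0.74 for St3gal2 and 0.71 for Slc35f2, against -1.003 for Ggh, -1.03 for Bnip3, -1.75 for Dhrs3, -1.46 for Slc30a4 and -1.46 for Slc22a17. The remaining ones were -1.11 for S100a11, -1.44 for Anxa5 and -1.91 for Laptm4b.

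Under the Vav effect and the Lck effect, Socs3 had 1.62 and -0.40, Il7r had 1.47 and -0.49, Gpr171 had -0.48 and 0.26, and Bnip3 had -0.75 and 0.28.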

How the results depend on the processing

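The 826 higher and 658 lower genes became 832 and 642 with a pseudocount of 0.1, 834 and 653 with median-of-ratios scaling, 823 and 717 with quantile scaling and 826 and 658 with robust variances. They became 598 and 622 with no filter, 537 and 390 with a mean of 5 FPKM or more, 606 and 1001 with scaling to the same sum, 1182 and 1045 with arrayWeights and 645 and 625 without chromosome 15. With 1 library left out they ranged from 332 to 894 and from 256 to 810. With the replicate block they became 501 and 393. The 174 positive and 174 negative differences between the Vav effect and the Lck effect became 102 and 71 with a mean of 5 FPKM or more, 355 and 397 with arrayWeights, 75 and 73 with the replicate block, and 102 and 151 without chromosome 15. They ranged from 93 to 231 and from 93 to 266 with 1 library left out. Of the 100 named genes, 91 kept their call in every fit with 1 library left out and 9 did not, 98 kept it under the replicate block and 100 under each scaling. Of the 46 named differences between the effects, 30 kept their call under the replicate block and 35 to 45 with 1 library left out. No direction turned. The causes of these shifts were not tested. With 3 libraries a group and a median standard error of 0.0849, small changes of single genes were near the limit of detection.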
